A study of Mus musculus with 2 samples.

Results

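The vascular adhesion molecules for leukocytes form a group of 8 genes among the 17790 of the deposited count table: Sele, Selp, Vcam1, Icam1, Icam2, Pecam1, Cdh5 and Esam. All 8 were in the table, and the rule that picks them is their names. Lung adenocarcinoma of C57BL/6 mice was dissociated, magnetic beads against CD45, the leukocyte surface phosphatase encoded by Ptprc, parted the cells, and each fraction was sequenced as droplet single-cell RNA, giving 1 CD45-negative and 1 CD45-positive library. Both libraries thus share strain, organ and tumour. The deposited cell names carry the word LucOS, which the sources used here do not explain, and no allele, age, sex or number of mice is given there. The authors' table assigns each cell to 1 of 7 classes, named AT1 and AT2 (the alveolar epithelial types), Ciliated, Endothelial, Erythrocyte, Fibroblast and Immune. The comparisons ask in which of these classes, and in which endothelial cells, each adhesion gene was found.

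Leukocytes leave the blood in steps. Endothelial selectins catch and slow the rolling cell, immunoglobulin-family ligands such as VCAM-1 and the ICAMs hold it through leukocyte integrins, and junctional proteins such as PECAM-1 and VE-cadherin govern its passage between endothelial cells. P-selectin is also stored with von Willebrand factor in endothelial granules and in platelets, whereas E-selectin and VCAM-1 are known for their induction by inflammatory signals. The lung is unusual in that many leukocytes pass through its narrow capillaries with little rolling. Lung capillary endothelium is described as general capillary cells and aerocytes, the latter marked by Car4, a membrane carbonic anhydrase, while Vwf, encoding von Willebrand factor, marks larger vessels.

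The genes lie on 5 chromosomes of GRCm38, and some are neighbours. Sele (ENSMUSG00000026582) spans chr1:164048234-164057677 and Selp (ENSMUSG00000026580) spans chr1:164115264-164150026, both on the plus strand with 57.6 kb between them. Icam2 (ENSMUSG00000001029, chr11:106377656-106388075) and Pecam1 (ENSMUSG00000020717, chr11:106654217-106750628) are on the minus strand with 266.1 kb between them. Vcam1 (ENSMUSG00000027962) is at chr3:116109949-116129688 on the minus strand. Icam1 (ENSMUSG00000037405) is at chr9:21015985-21028817, Esam (ENSMUSG00000001946) at chr9:37528078-37538319 and Cdh5 (ENSMUSG00000031871) at chr8:104101625-104144511, all on the plus strand.

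Promoter sequences are shown for Sele, Selp and Icam1, because Sele and Selp are neighbours with the Vwf group as their main site, and Icam1 was found in epithelium as much as in endothelium. They were the 3 of 8 genes matched in the RefSeq promoter table of GRCm38.p6. Each is the 250 bases before the RefSeq start on the plus strand, with matches to GGANNTTCC, a short form of the binding sequence of NF-kB factors, in capitals. The windows are chr1:164047984-164048233 for Sele, chr1:164115014-164115263 for Selp and chr9:21015690-21015939 for Icam1.
Sele: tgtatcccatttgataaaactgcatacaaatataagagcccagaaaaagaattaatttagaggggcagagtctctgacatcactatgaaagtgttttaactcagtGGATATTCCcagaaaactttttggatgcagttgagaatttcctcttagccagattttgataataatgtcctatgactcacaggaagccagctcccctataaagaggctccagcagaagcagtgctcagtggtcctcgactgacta
Selp: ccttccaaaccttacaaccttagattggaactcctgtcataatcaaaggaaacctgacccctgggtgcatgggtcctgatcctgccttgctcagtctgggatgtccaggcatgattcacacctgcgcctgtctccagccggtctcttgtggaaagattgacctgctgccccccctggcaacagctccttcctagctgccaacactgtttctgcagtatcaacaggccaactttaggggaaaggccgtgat
Icam1: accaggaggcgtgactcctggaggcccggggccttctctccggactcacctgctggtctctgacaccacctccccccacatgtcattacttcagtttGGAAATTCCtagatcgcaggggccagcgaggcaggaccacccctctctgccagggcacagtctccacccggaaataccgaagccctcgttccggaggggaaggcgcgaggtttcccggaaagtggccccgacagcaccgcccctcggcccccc
Both strands were searched. GGANNTTCC was found on the plus strand 145 to 137 bases before the start of Sele. It was found on both strands 153 to 145 bases before the start of Icam1. Selp held no match. Of all 32851 promoters of the same length, 3.59% held the motif. This motif was chosen after the sequences had been read, since the longer NF-kB consensus of 10 letters, found in 3.9% of promoters, matched none of the 3 windows. TATAA stood in the Sele window at 220 to 216 and at 49 to 45 bases before the start and in neither other window, against 22.8% of all promoters. A match describes letters only and shows no binding.

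The CD45-negative library held 3957 cells (40873786 unique molecular identifiers, UMI; median 7710 per cell) and the CD45-positive library 11432 cells (47477407 UMI; median 3376). The text deposited with the series gives 6000 cells loaded per channel but not how many channels were run. The libraries shared 57 cell barcodes, and no doublets were removed here. The Endothelial class held 1249 and 2172 cells, and all 8 of 8 other pan-endothelial markers (Cldn5, Egfl7, Tie1, Tek, Kdr, Ramp2, Calcrl, Flt1) were more than 2-fold higher in it than in the other CD45-negative cells. The class named Fibroblast went against its label, since its 6 mesothelial markers summed to 8892 UMI per 1000000 UMI (CPM) and its 6 fibroblast markers to 4078 CPM. In the CD45-positive Endothelial class, 693 of 2172 cells (31.9%) had a Ptprc UMI and 7 leukocyte markers summed to 2141 CPM, against 75.3 CPM in the CD45-negative one. With 1 library per fraction there was no replicate, so no test was run: levels are UMI summed over cells, in CPM, with exact 95% Poisson intervals, shares carry Clopper-Pearson intervals and ratios exact conditional intervals, all covering counting error only.

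CD45-negative endothelial cells were parted by the 2 marker genes at 2 UMI each. The groups held 201 cells with Vwf only (the Vwf group), 564 with Car4 only (the Car4 group), 205 with both and 279 with neither, or 16.1%, 45.2%, 16.4% and 22.3% of the class. Median depth ran from 5884 UMI per cell in the neither group to 8684 in the group with both. Large-vessel and aerocyte marker lists without the defining gene followed the split, but general capillary markers did not. The 6 general capillary markers summed to 4676.5 CPM in the Vwf group, 4767 in the neither group and 4139 in the Car4 group. The Vwf group thus also carried capillary transcripts. Leaving out Vwf, 8 large-vessel markers summed to 3341 CPM in the Vwf group, 778 in the neither group and 590 in the Car4 group. Leaving out Car4, 5 aerocyte markers summed to 3588 CPM in the Car4 group, 671 in the neither group and 378 in the Vwf group. The neither group was mixed: its 6 lymphatic markers summed to 2085 CPM against 55.9 in the Vwf group, and its 6 fibroblast markers to 1135 CPM against 430 in the Vwf group and 439 in the Car4 group.

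Sele, encoding E-selectin, was found in very few cells. In the CD45-negative Endothelial class 12 UMI lay in 4 of 1249 cells, giving 1.22 CPM (0.629 to 2.13) and 0.320% of cells. All 4 cells were in the Vwf group, at 7.80 CPM (4.03 to 13.6). The other 3 endothelial groups had no Sele UMI, which allows up to 0.683 CPM in the Car4 group, 1.5 CPM in the group with both and 1.55 CPM in the neither group (3 counts per group). Set against these 3-count floors, Sele in the Vwf group was 11.4 times the Car4 group and 5.03 times the neither group. These ratios leave out the counting error of the 12 UMI and are no lower bounds. No other CD45-negative class held a UMI of it. The CD45-positive library held 4 Sele UMI in 3 cells, 2 of them in Endothelial cells (0.221 CPM) and 2 in 1 Immune cell.

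The 4 cells with Sele also held other adhesion genes. A Vcam1 UMI was present in all 4, an Icam1 UMI in 3 and a Selp UMI in 2. In the 197 Vwf-group cells without Sele the shares were 38.1% for Vcam1, 61.4% for Icam1 and 15.7% for Selp. The Icam1 count was thus near its share in those cells. The 4 cells carried Mgp, the matrix Gla protein, at 59 UMI in all, and Fbln5 at 4, Efnb2 at 3, Bmx at 2 and Dkk2 at 2. The other artery markers Gja4, Gja5, Sox17 and Hey1 had none. Of the vein markers, Slc6a2 and Nr2f2 had 4 UMI each, Car8 3 and Ephb4 2, and Ackr1, encoding a venular chemokine receptor, had none. With 4 cells at a median of 4998 UMI, absence of a gene was not measurable beyond a floor of 136 CPM.

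Selp, encoding P-selectin, marked the Vwf group. Its level was 43.6 CPM (33.8 to 55.3) in the Vwf group, 8.52 CPM (4.97 to 13.7) in the group with both, 0.517 CPM in the neither group and 0.228 CPM in the Car4 group, the last 2 resting on 1 UMI each. The ratio of the Vwf group to the neither group was 84.2 (14.6 to 3375) and to the Car4 group 191 (33.2 to 7673). In the Vwf group 33 of 201 cells had a Selp UMI (16.4%, 11.6 to 22.3), and the group held 77.9% of all endothelial Selp UMI. With each cell thinned to 1000 UMI, the share was 3.73% in the Vwf group and 0.713% over the whole Endothelial class. Few cells carried the signal, since 21 cells held 82.1% of the Vwf-group UMI, with up to 12 in 1 cell.

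Across classes, Selp was likewise found mainly in endothelium. The CD45-negative Endothelial class had 86 UMI in 40 of 1249 cells, at 8.72 CPM (6.98 to 10.8), or 3.20% of cells (2.30 to 4.34). AT2 cells had 7 UMI, at 0.377 CPM (0.152 to 0.777) and 0.417% of cells with a median depth of 8143 UMI against 6808 in Endothelial cells. AT1, Ciliated, Erythrocyte, Fibroblast and Immune cells of that library had none. In the CD45-positive library it was 3.77 CPM (2.61 to 5.26) in Endothelial and 1.05 CPM (0.706 to 1.51) in Immune cells, and 0 in the other 5 classes.

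**Figure D1:**
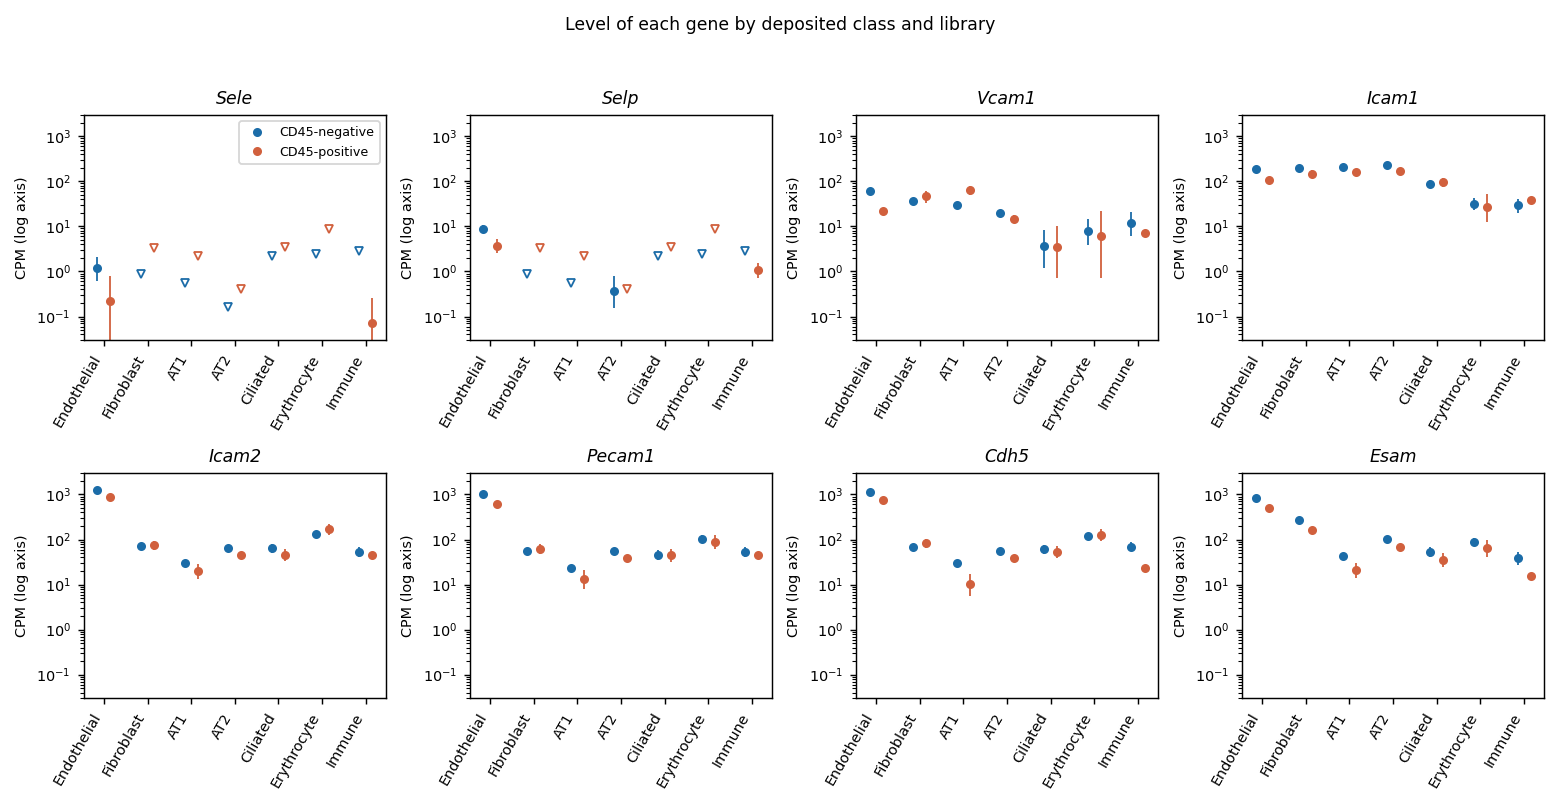
Level of each of the 8 genes in the 7 deposited classes, in CPM on a log axis, for the CD45-negative (blue) and CD45-positive (red) library; lines are 95% Poisson intervals, and open triangles mark the 3-count floor of a class with no UMI. Sele and Selp lie at or near the floor outside Endothelial cells, Icam1 is as high in AT1, AT2 and Fibroblast cells as in Endothelial cells, and Icam2, Pecam1 and Cdh5 stand highest in Endothelial cells of both libraries.

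Vcam1, whose product binds the leukocyte integrin VLA-4, shared the Vwf-group peak with the selectins but was also found outside endothelium. It reached 260 CPM (235 to 287) in the Vwf group, 55.4 CPM (45.4 to 66.9) in the neither group, 25.6 CPM (19 to 33.6) in the group with both and 13.4 CPM (10.2 to 17.3) in the Car4 group. No intervals of these 4 overlapped. The Vwf group was 4.70 times (3.79 to 5.87) the neither group and 19.4 times (14.7 to 25.9) the Car4 group, and the neither group was 4.12 times (2.97 to 5.77) the Car4 group. Its share of cells followed the same order at the top, with 39.3% in the Vwf group and 5.67% in the Car4 group, or 13.8% and 1.05% after thinning. A few cells dominated: 21 held 72.5% of the Vwf-group UMI, and 1 cell held 87.

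Stromal transcripts moved with Vcam1 in the neither group. Cells there with at least 2 UMI over Pdgfra, Pdgfrb, Dcn, Col1a1, Cox4i2, Notch3 and Inmt (138 cells) had Vcam1 at 95.3 CPM (77.2 to 116), and the 141 others had it at 11.9 CPM (5.93 to 21.3). In the Vwf group the order was the opposite, with Vcam1 at 68.1 CPM in 54 cells with stromal UMI and 348 CPM (314 to 386) in 147 without. Leaving out all endothelial cells with stromal UMI, the Vcam1 ratio of the Vwf group to the neither group became 29.3 and that of the Car4 group to the neither group 0.662, within 2-fold, against 0.243 with all cells. This gate was chosen after the data had been seen.

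Over classes, Vcam1 was highest in Endothelial cells of the CD45-negative library, at 62.6 CPM (57.7 to 67.7). Fibroblast cells followed at 35.9 CPM (29.8 to 42.8) and AT1 cells at 29.8 CPM (25.4 to 34.9), these intervals overlapping, then AT2 cells at 20.2 CPM (18.2 to 22.3). Immune, Erythrocyte and Ciliated cells had 11.7, 8.02 and 3.59 CPM, with overlapping intervals. In the CD45-positive library AT1 cells led at 63.4 CPM, followed by Fibroblast cells at 46.6 CPM and Endothelial cells at 21.8 CPM (18.9 to 25.1).

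Icam1, whose product binds the integrins LFA-1 and Mac-1, was no endothelial marker in these cells. AT2 cells had it at 233 CPM (226 to 240), AT1 cells at 212 CPM (200 to 225), Fibroblast cells at 195 CPM (181 to 211) and Endothelial cells at 189 CPM (180 to 197), all in the CD45-negative library. Of neighbours in that order, AT1 and Fibroblast cells overlapped, as did Fibroblast and Endothelial cells. Ciliated cells had 87.6 CPM, Erythrocyte cells 32.1 CPM and Immune cells 29.2 CPM. In the CD45-positive library AT2 cells had 173 CPM, AT1 cells 164 CPM, Fibroblast cells 149 CPM and Endothelial cells 107 CPM (100 to 114), again above Immune cells at 39.0 CPM. A UMI was found in 68.6% of AT2 and 59.6% of Endothelial cells of the CD45-negative library, or 17.8% and 15.9% after thinning to equal depth.

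Within endothelium Icam1 had its peak elsewhere than Selp and Vcam1. Its level was 233 CPM (219 to 247) in the Car4 group, 187 CPM (166 to 210) in the Vwf group, 171 CPM (154 to 191) in the group with both and 107 CPM (93.0 to 123) in the neither group. The Car4 group was 2.17 times (1.87 to 2.53) and the Vwf group 1.75 times (1.46 to 2.10) the neither group. Between the Vwf and Car4 groups the Icam1 ratio was 0.805 (0.704 to 0.919). Stromal transcripts stood beside lower Icam1 in the Car4 group, at 173 CPM in the 278 cells with at least 2 such UMI and 301 CPM in the 286 others; their part in the result was not tested.

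Icam2, a constitutive ligand of LFA-1, was higher in the Car4 group. It stood at 1626 CPM (1588 to 1664) in the Car4 group, 1248 CPM (1199 to 1298) in the group with both, 778 CPM (739 to 818) in the neither group and 773 CPM (730 to 819) in the Vwf group. The Car4 group was 2.09 times (1.98 to 2.21) the neither group and 2.10 times (1.98 to 2.24) the Vwf group, and the last 2 groups differed by less than counting error (ratio 0.994, 0.921 to 1.07). Over classes Icam2 was endothelial, at 1250 CPM (1228 to 1272) with a UMI in 97.7% of cells. The other CD45-negative classes ranged from 30.6 CPM in AT1 cells to 131 CPM in Erythrocyte cells.

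The junctional genes Pecam1, Cdh5 and Esam were nearly even over the split. Pecam1, encoding CD31, ran from 850 CPM (809 to 892) in the neither group to 1096 CPM (1065 to 1127) in the Car4 group, with the Vwf group at 931 CPM (884 to 981). Cdh5, encoding VE-cadherin, was 907 CPM (860 to 956) in the Vwf group, 939 CPM (896 to 983) in the neither group and 1273 CPM (1240 to 1307) in the Car4 group. Esam, a tight-junction-associated immunoglobulin protein, was 730 CPM in the Vwf group, 743 CPM in the neither group and 916 CPM (888 to 944) in the Car4 group. Each of the 3 was highest in the Car4 group, by 1.29 (1.22 to 1.36), 1.36 (1.29 to 1.43) and 1.23 times the neither group for Pecam1, Cdh5 and Esam, which is under 2-fold.

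**Figure D2:**
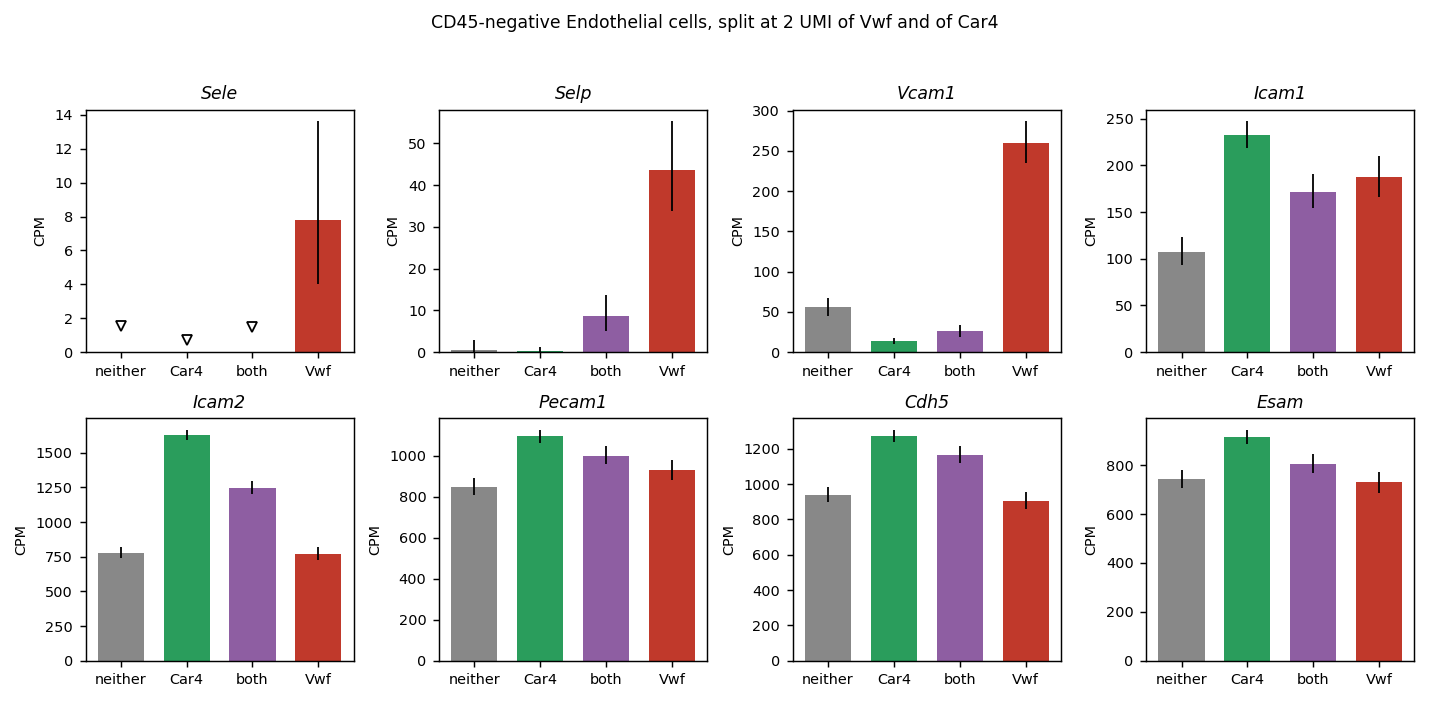
Level in CPM (linear axes from 0) of each of the 8 genes in the 4 groups of CD45-negative Endothelial cells; bars are summed UMI over cells, lines 95% Poisson intervals and open triangles 3-count floors where no UMI was found. Sele, Selp and Vcam1 have their highest bar in the Vwf group, whereas Icam1 and Icam2 and, by a smaller margin, Pecam1, Cdh5 and Esam have it in the Car4 group.

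Counted against all genes with at least 50 UMI in the compared groups together, few genes differed 2-fold between endothelial groups, and some of the adhesion genes did. Between the Vwf and neither groups 3.6% of 7306 genes did so (1.22% higher and 2.38% lower in the Vwf group), and of 6 adhesion genes other than Sele and Selp, Vcam1 was higher and none lower. Between the Car4 and neither groups the background was 4.66% of 8892 genes (2.1% higher, 2.55% lower), and of the same 6 genes Icam1 and Icam2 were higher and Vcam1 lower. Between the Vwf and Car4 groups it was 6.16% of 8671 genes (2.41% higher, 3.75% lower), and of the 6 genes Vcam1 was higher and Icam2 lower in the Vwf group. The median log2 ratio of the 6 genes was 0.06, 0.40 and -0.32 in these comparisons, beside -0.03, 0.01 and -0.07 for all genes. Sele had too few UMI for this count. Selp also passed 2-fold against both other groups, but it reached the minimum only through its 67 UMI in the Vwf group and so could only be called higher there.

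The levels also changed stepwise with the amount of the marker transcripts. From cells with no Vwf UMI (578 cells) to cells with 10 to 19 (54 cells), Selp went from 0.241 to 72.4 CPM, and it was 53.7 CPM in the 36 cells with 20 or more. Vcam1 was 34.2 CPM at no Vwf UMI, 11.1 at 1 UMI, 75.2 at 4 to 9 UMI, 263 at 10 to 19 and 550 at 20 or more. Icam2 and Cdh5 went the other way, from 1425 and 1133 CPM at no Vwf UMI to 724 and 742 CPM at 20 or more. Pecam1 stayed between 892 and 1033 CPM in all 7 bins. The median depth of the bins ran from 6323 to 10260 UMI.

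Along Car4 the order differed. Icam2 went from 720 CPM in the 303 cells with no Car4 UMI to 1638 CPM at 10 to 19 UMI and 2376 CPM in the 172 cells with 20 or more. Icam1 lay between 104 and 149 CPM up to 9 Car4 UMI, was 254 CPM at 10 to 19 and 343 CPM at 20 or more. Vcam1 was 147 and 144 CPM at 0 and 1 Car4 UMI and between 10.1 and 33.5 CPM in all bins above. Selp was 25.2 CPM at no Car4 UMI and 10.5 CPM at 1, and Cdh5 817 and 1098 CPM, so the genes did not share 1 amount of Car4 at which they changed.

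**Figure D3:**
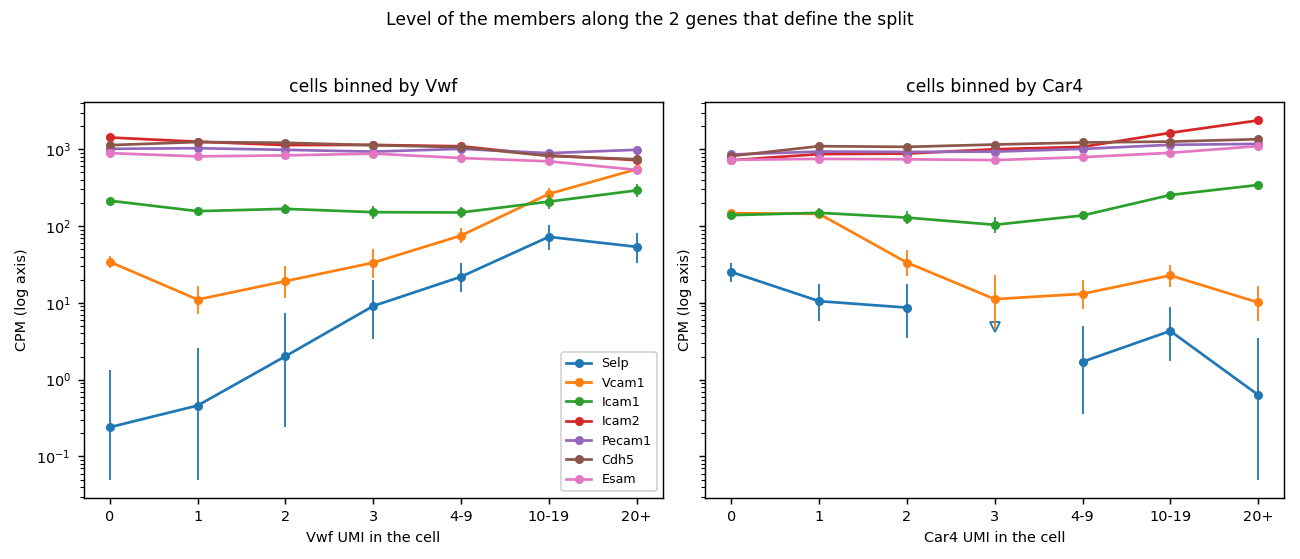
Level in CPM (log axis) of 7 of the genes in CD45-negative Endothelial cells binned by the UMI of Vwf (left) or of Car4 (right) in the cell; lines through points are 95% Poisson intervals, and an open triangle marks the 3-count floor of a bin with no Selp UMI. Selp and Vcam1 go up with Vwf while Icam2 and Cdh5 go down, and Icam1 and Icam2 go up in the upper Car4 bins while Vcam1 is low.

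Within the Vwf group, cells with and without Selp also differed in other adhesion genes. The 33 cells with a Selp UMI had Vcam1 at 516 CPM (435 to 607) and the 168 without at 203 CPM (179 to 230), at median depths of 7597 and 6778 UMI. Cdh5 was lower in the cells with Selp, at 545 CPM (462 to 638) against 988 CPM (933 to 1044), as was Icam2, at 616 against 808 CPM. Icam1 (197 and 185 CPM), Pecam1 (1007 and 914 CPM) and Esam (677 and 741 CPM) had overlapping intervals in these cells.

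Vessel markers parted along the same line. In cells with Selp, Ackr1 stood at 215 CPM against 7.15 CPM without, and Slc6a2, a noradrenaline transporter gene listed among venous markers, at 985 against 391 CPM. All 5 vein markers were higher with Selp, Nr2f2 and Ephb4 with overlapping intervals, and their sum was 1770 against 736 CPM. Vwf itself was also higher, at 2351 CPM with Selp against 1131 CPM without, and its part in these differences was not tested. The 9 artery markers were divided, 5 higher and 4 lower with Selp, and their sum was also higher, at 2089 against 1517 CPM. Higher were Mgp at 1480 against 569 CPM, Fbln5 at 154 against 57.2 CPM and Dkk2 at 50.2 against 8.74 CPM. Gja5 and Bmx were also higher, with overlapping intervals. Lower were Efnb2 at 39.4 against 205 CPM, Hey1 at 46.6 against 144 CPM, Sox17 at 100 against 235 CPM and Gja4 at 158 against 242 CPM. Platelets also hold P-selectin. Of 7 platelet markers 5 had no UMI in the cells with Selp and 1 had none in those without, and the list summed to 32.3 against 134 CPM. The 3-count floors of the sets were 10.8 and 2.38 CPM, so their zeros are not alike. A Pf4 UMI was found in 18.2% of cells with Selp and 20.2% of those without. The lymphatic factor gene Prox1 had no UMI in either set.

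A Vcam1 UMI was found in a larger share of cells with Selp than of cells without, also at equal depth. Over the whole CD45-negative Endothelial class, 30 of 40 cells with Selp (75.0%) had a Vcam1 UMI, and 139 of 1209 without (11.5%). After thinning to 2000 UMI the shares were 7 of 16 (43.8%, 19.8 to 70.1) and 5.19%. For Icam2 the thinned shares were reversed, 43.8% of cells with Selp against 83.0% without.

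Across deposited classes, a 2-fold difference was common among all genes, and most of the adhesion genes passed it in Endothelial cells by a wide margin. In the CD45-negative library 43.2% of 12854 genes differed 2-fold between Endothelial and all other cells (24.9% higher, 18.3% lower), and of 6 adhesion genes 5 were higher, all but Icam1, leaving out Sele and Selp, the latter since it reached the minimum only through Endothelial cells. The median log2 ratio of the 6 was 3.64, beside 0.40 for all genes. Selp was 38.7 times (18.0 to 99.0), Icam2 20.2 times (19.3 to 21.3), Cdh5 19.9 times, Pecam1 19.7 times (18.7 to 20.8), Esam 7.88 times and Vcam1 2.84 times (2.54 to 3.17) higher. Icam1 was at a ratio of 0.925 (0.877 to 0.974). With the 50 most abundant genes left out of the totals, an alternative that lowered the median of all genes to 0.09, the background became 17.1% higher and 21.5% lower.

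In the CD45-positive library the background was 31.9% of 13009 genes (17.8% higher, 14.1% lower; 14.8% and 17.0% without the 50 most abundant genes), and 5 of 7 adhesion genes were higher in Endothelial cells. Cdh5 was 27.1 times, Icam2 19.1 times, Esam 16.5 times, Pecam1 13.6 times and Selp 4.99 times (2.95 to 8.49) higher. Vcam1, at 1.92 (1.61 to 2.27), and Icam1, at 1.46 (1.35 to 1.57), were under 2-fold. The Selp and Vcam1 ratios were smaller and the Cdh5 and Esam ratios larger than in the CD45-negative library; the difference between libraries was not tested.

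Cdh5 UMI were found in every class of both libraries, and the other adhesion genes were compared with Cdh5 in each. Relative to the Endothelial class, Icam2 UMI per Cdh5 UMI was 0.994 in Erythrocyte, 0.946 in Ciliated, 0.938 in AT1, 1.03 in AT2 and 0.915 in Fibroblast cells of the CD45-negative library. Pecam1 per Cdh5 was between 0.848 and 1.09 in those 5 classes. In these 5 classes Icam2, Pecam1 and Cdh5 thus kept nearly the proportions they have in endothelium. Whether RNA free in the droplets, doublets or misassigned cells carried them was not tested. Immune cells of that library had Icam2 per Cdh5 at 0.690 and Pecam1 at 0.860.

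Esam, Icam1 and Vcam1 did not keep that proportion everywhere. Esam per Cdh5 was 5.35 times (4.63 to 6.19) the endothelial proportion in Fibroblast, 2.42 times (2.25 to 2.61) in AT2 and 1.94 times (1.58 to 2.40) in AT1 cells, but 0.994 times in Erythrocyte cells. In the Fibroblast class Esam stood at 274 CPM (257 to 292) in 85.1% of cells (81.0 to 88.6), or 24.3% after thinning, and at 166 CPM in the CD45-positive library. The 36 Fibroblast cells with most Esam held only 28.2% of its UMI there. Icam1 per Cdh5 was 43.1 times (36.5 to 51.3) in AT1, 24.6 times (23.0 to 26.3) in AT2 and 16.8 times (14.4 to 19.5) in Fibroblast cells. Vcam1 per Cdh5 was 18.3 times in AT1, 9.29 times in Fibroblast and 6.40 times in AT2 cells, and 1.06 times in Ciliated cells.

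Vcam1 was carried by a minority of cells outside endothelium, as it was within it. In the CD45-negative Endothelial class the 125 cells with most Vcam1 held 92.9% of its UMI. In AT2 cells its 374 UMI lay in 143 of 1677 cells. In AT1 cells the 29 cells with most Vcam1 held 86.3% of its UMI, and in the Fibroblast class the 36 highest cells held 88.6%.

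**Figure D4:**
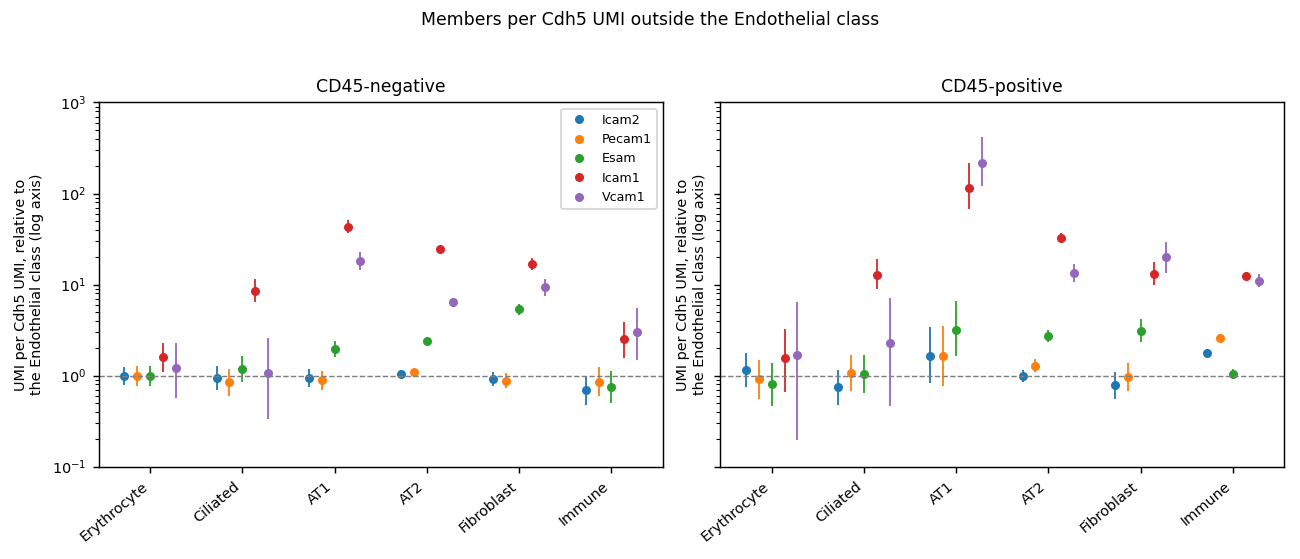
UMI of Icam2, Pecam1, Esam, Icam1 and Vcam1 per Cdh5 UMI in each class outside Endothelial, divided by the same proportion in the Endothelial class (log axis, dashed line at 1), for both libraries; lines are 95% intervals. In CD45-negative AT1, AT2 and Fibroblast cells Icam2 and Pecam1 lie near 1 and Icam1, Vcam1 and Esam above it, while Vcam1 is at 1.06 in Ciliated cells and Icam2 at 0.690 in Immune cells.

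The CD45-positive library repeated the split with less depth and more leukocyte transcripts. Its 2172 Endothelial cells fell into 251 with Vwf only, 644 with Car4 only, 73 with both and 1204 with neither at the same 2-UMI rule, at median depths of 4089, 4056, 5998 and 3177 UMI. Selp was 20.7 CPM (13.1 to 31.1) in the Vwf group, 0.657 in the Car4 group, 11 in the group with both and 0.905 in the neither group. Vcam1 was 97.3 CPM (79.8 to 117) in the Vwf group and between 10.5 and 13.2 CPM in the other 3 groups. Both genes thus had their peak in the Vwf group in either library, but the Vcam1 ratio of the Car4 to the neither group was 0.911 in the CD45-positive one (1.06 without cells with a Ptprc UMI) and 0.243 in the CD45-negative one. That difference between libraries was not tested.

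Icam1 and Icam2 were again higher in the Car4 than in the Vwf and neither groups. Icam1 was 164 CPM (150 to 179) there, 152 CPM (118 to 192) in the group with both, 108 CPM in the Vwf group and 62.0 CPM (54.9 to 69.8) in the neither group. The first 2 overlapped, and without cells with a Ptprc UMI they stood at 162 and 164 CPM. Icam2 was 1388 CPM (1347 to 1431) in the Car4 group, 1217 CPM in the group with both, 635 CPM in the Vwf group and 591 CPM (569 to 614) in the neither group. The ratio of the Car4 group to the neither group was 2.65 for Icam1 and 2.35 for Icam2. Ptprc stood at 140 CPM in the neither group, 100 CPM in the Vwf group and 81.8 CPM in the Car4 group, and its part in these ratios was not tested beyond the values without such cells.

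Every adhesion gene was lower in CD45-positive than in CD45-negative Endothelial cells. The ratio was 0.349 (0.295 to 0.410) for Vcam1, 0.432 (0.281 to 0.649) for Selp, 0.566 (0.523 to 0.612) for Icam1, 0.600 for Esam, 0.605 for Pecam1, 0.682 for Cdh5 and 0.718 (0.698 to 0.738) for Icam2. Of 6 adhesion genes other than Sele and Selp, Vcam1 was more than 2-fold lower and none higher, beside a background of 9.27% of 11258 genes (6.05% higher, 3.22% lower). Selp also passed 2-fold, but it reached the minimum only through the CD45-negative cells and is left out of this count. The median log2 ratio was -0.74 for the adhesion genes and -0.25 for all genes. Medians were also negative for 8 pan-endothelial markers (-0.41), 18 endothelial transcription factor genes (-0.53) and 6 aerocyte markers (-0.68). The fall was thus shared by endothelial genes outside this group. Of the 2172 CD45-positive endothelial cells 1204 were in the neither group, against 279 of the 1249 CD45-negative ones. The part of this make-up in the ratios was not tested. Without the CD45-positive endothelial cells that had a Ptprc UMI, Icam2 was 1003 CPM in place of 897 CPM and Cdh5 859 CPM in place of 770 CPM, and Vcam1 was 23.3 CPM. Depth differed with the fraction, at a median of 3591 against 6808 UMI per cell.

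In leukocytes themselves the adhesion genes were low, with a few exceptions. The 7438 cells of the CD45-positive Immune class were clustered with the 8 genes left out, and names came from marker lists. Vcam1 stood at 45.6 CPM (37.6 to 54.7) in 583 C1q macrophage-like cells, which held 115 of the class's 195 Vcam1 UMI (59.0%), with a UMI in 8.40% of cells. The next named cluster was Mature dendritic-like at 13.6 CPM (4.40 to 31.6). Icam1 was 67.7 CPM (43.8 to 100) in the Mature dendritic-like and 58.0 CPM (47.3 to 70.4) in the Neutrophil-like cluster, above the 39.0 CPM of the whole class.

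Of the 29 Selp UMI in the Immune class, 22 lay in a cluster of 27 cells led by Prg4, Saa3 and Alox15. There Selp stood at 154 CPM (96.3 to 233), with a UMI in 59.3% of cells, and Icam2 at 656 CPM (530 to 803). Pecam1 (14 CPM), Cdh5 (27.9 CPM, 7.61 to 71.5) and Vcam1 (1 UMI) were low in it, so Icam2 did not come with the endothelial proportion of Cdh5. Among 7 platelet markers, Pf4 had 729 UMI, Gp1bb 2, Ppbp 1 and the other 4 none. The macrophage markers C1qa, C1qb and C1qc were, like Pf4, among the 50 genes most raised in this cluster. Clusters without a name were pooled at the other clustering resolutions tried, 0.5 and 2.0, so it was not followed there. Its cells keep no cell type name here.

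Icam2 and Pecam1 UMI were also found in the B cell-like cluster. Pecam1 stood at 68.0 CPM (59.4 to 77.5) and Icam2 at 55.9 CPM (48.1 to 64.5) there. These levels lie within those of the classes outside Endothelial in that library. From AT1 to Erythrocyte cells, Pecam1 ran there from 13.3 to 89.8 CPM and Icam2 from 19.9 to 168 CPM. Whether the B cell-like cells made these transcripts themselves was not tested. Over the whole Immune class, the cluster led by Prg4 included, Pecam1 per Cdh5 was 2.58 times (2.34 to 2.84) the endothelial proportion. Icam2 per Cdh5 was 1.75 times (1.59 to 1.93) that proportion, unlike Esam at 1.04 times. Cdh5 stood at 112 CPM (81.8 to 150) in a cluster of 106 cells led by Siglech, where Esam was 27.4 CPM. Other endothelial markers were also found there, with Cldn5 at 132 CPM and Ramp2 at 99.6 CPM, against 35.8 and 31.3 CPM in the B cell-like cluster. An Endothelial-like cluster of 69 cells within the Immune class had Cdh5 at 431 CPM, Icam2 at 365 CPM and Pecam1 at 313 CPM.

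**Figure D5:**
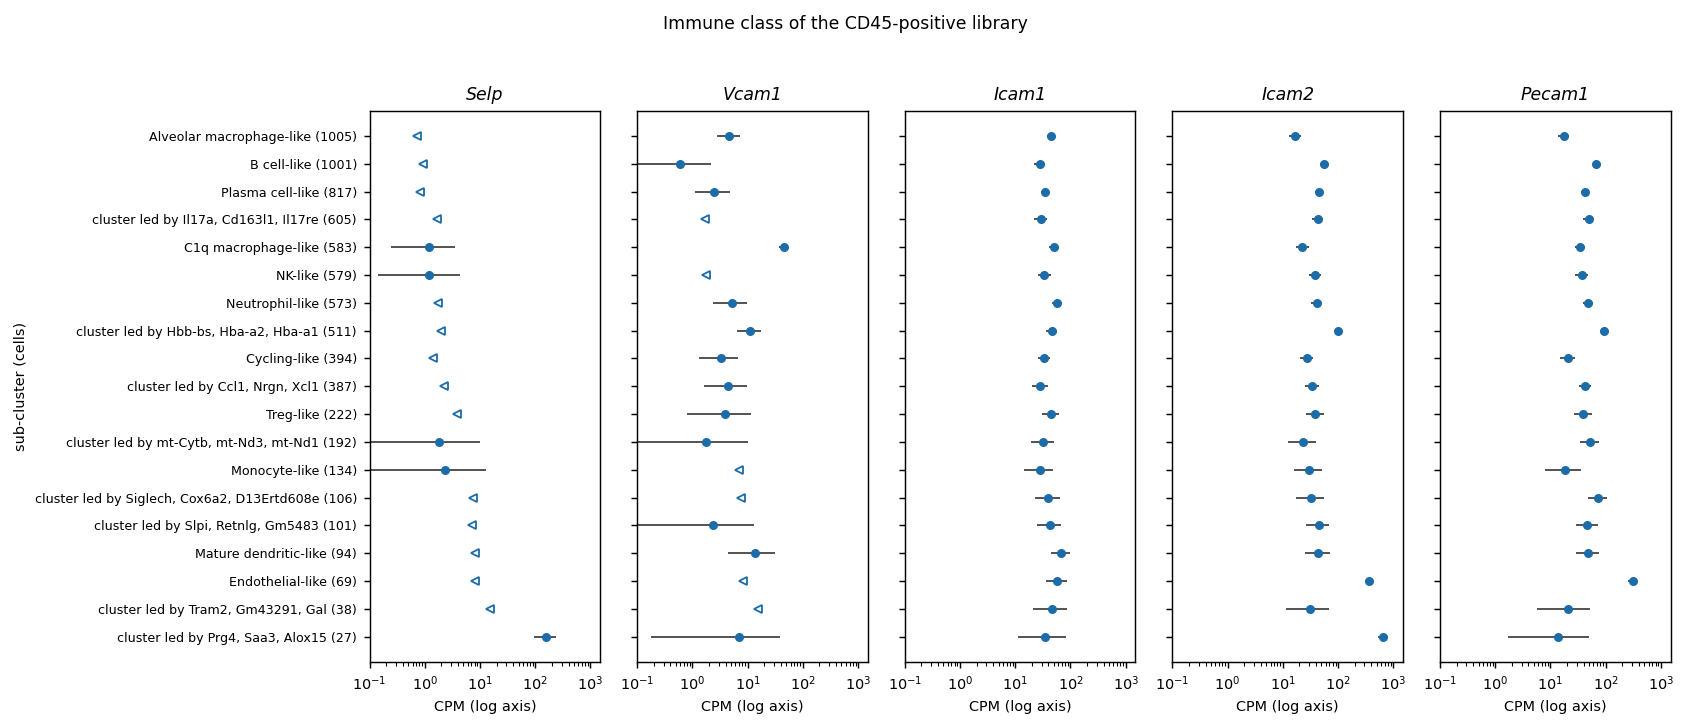
Level in CPM (log axis) of Selp, Vcam1, Icam1, Icam2 and Pecam1 in the sub-clusters of the CD45-positive Immune class, with the number of cells of each in brackets; lines are 95% Poisson intervals and open triangles 3-count floors. Selp is highest in the cluster led by Prg4, Saa3 and Alox15, and Vcam1 in the C1q macrophage-like cluster.

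Other genes of leukocyte trafficking were set beside the adhesion genes. Of 37 further endothelial genes of leukocyte traffic, 33 were in the table. Between the Vwf and neither groups 4 of 26 with enough UMI were higher and none lower, beside 1.22% higher among all genes. They were Vwf itself, which defines the groups, Ackr1, Cdh13, encoding T-cadherin, and the junctional gene Jam2. Ackr1 stood at 44.9 CPM in the Vwf group, 28.9 times the 3-count floor of the neither group, where it had no UMI. It reached the minimum only through the Vwf group and so could only be called higher there. Cdh13 was 9.43 times (4.85 to 20.5) and Jam2 2.08 times (1.68 to 2.58) the neither group. Like Ackr1, Cdh13 reached the minimum only through the Vwf group and so could only be called higher there. Between the Car4 and neither groups, with 2.1% of all genes higher, 2 of 25 were, Chst2, a sulfotransferase of selectin ligands, at 2.89 times (2.05 to 4.19) and Cx3cl1, encoding fractalkine, at 2.23 times (1.60 to 3.17). Cd63, whose product lies in the same granules as P-selectin, was lower in the Car4 group, at 0.472 times (0.416 to 0.535). Between the Vwf and Car4 groups 5 of 27 were higher and 2 lower, beside 2.41% and 3.75% of all genes. The 5 include Vwf, which defines the groups, and Ackr1 and Cdh13, which again reached the minimum only through the Vwf group. Of the leukocyte-side ligands and integrins, 3 had enough UMI in the endothelial groups, and Cd44, encoding a hyaluronan receptor, was lower in the Car4 than in the neither group (log2 -1.15) and higher in the Vwf than in the Car4 group (log2 1.47). Vein markers moved with Selp, with 3 of 5 higher and none lower in the Vwf group than in the neither group. Ackr1, which could only be called higher, is among the 3. Of 7 artery markers with enough UMI 2 were higher and 1 lower.

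Genes of inflammatory induction and of dissociation stress gave no 2-fold call in the split. Of the 16 to 17 induction genes and 14 stress genes with enough UMI, none differed 2-fold in any of the 3 endothelial comparisons, where 3.6% to 6.16% of all genes did, so that few calls or none are the background in lists of this size. Their medians were -0.01, -0.07 and 0.02 for induction and 0.21, 0.06 and 0.29 for stress on the log2 scale, in the order Vwf over neither, Car4 over neither and Vwf over Car4. All genes had medians of -0.03, 0.01 and -0.07 there, and the stress genes Nr4a1 and Hspa1b were 1.92 and 1.89 times as high in the Vwf as in the neither group. Of 18 endothelial transcription factor genes, Nr2f2, a venous regulator, was lower in the Car4 than in the neither group (log2 -1.15) and higher in the Vwf than in the Car4 group (log2 1.64), and no other passed 2-fold.

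Likeness of pattern was measured over 17 groups, namely the CD45-negative classes with Endothelial replaced by its 4 groups, and the CD45-positive classes, among 9960 genes with at least 500 UMI. The groups share 2 libraries, and free RNA in these was not measured, so Pearson's r of log2(CPM + 1) is a description. The levels of Vwf over 4 of the groups are set by the split itself, so likeness to Vwf and to genes that follow it draws partly on that rule. Selp was most like Slc6a2 (0.932), Cytl1 (0.932) and Vwf (0.919), and Sele was most like the same genes, Cytl1 (0.753), Slc6a2 (0.711) and Vwf (0.689). Vcam1 had Hs3st1 (0.825), Rnd1 (0.823) and Prkcdbp (0.817). Icam1 had Bcr (0.938), Ccnd1 (0.921) and Mpp5 (0.92). For Icam2 the 3 were Fmo1, Stmn2 and Clec1a (each 0.992), for Pecam1 Fgd5 (0.992), Gpihbp1 (0.991) and Icam2 (0.99), for Cdh5 Cyyr1 (0.996), Gpihbp1 (0.996) and Eng (0.995), and for Esam Phactr1 (0.985), Flt4 (0.979) and Pmp22 (0.977). Between adhesion genes r was 0.99 for Icam2 with Pecam1, 0.823 for Sele with Selp and 0.165 for Icam1 with Cdh5.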

How the data were processed

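Single-cell RNA-seq of 1 CD45-negative and 1 CD45-positive library of mouse lung adenocarcinoma was analysed. The authors deposited raw UMI counts per gene and cell and a table of cell classes. The submitters' processing notes name Cell Ranger 1.1.0 and mm10. The sources used here do not say how the classes were made or whether doublets were removed. The files hold cells of at least 2204 UMI and genes in at least 3 cells, and no further cells were removed.

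From the counts, UMI were summed per class and library and scaled to CPM (pandas 2.3.3, numpy 2.4.6 and scipy 1.17.1 under Python 3.11.15). Groups of Endothelial cells were set at 2 UMI of Vwf and of Car4. Genes with at least 50 UMI in both groups together were counted at 2-fold. A group at 0 was given a floor of 3 counts. Shares were also computed after thinning to 1000 UMI, with no cell left out. Ratios carry no p-value, since each group was 1 library, and nothing says from how many mice. Immune cells were clustered with Leiden (scanpy 1.11.5, igraph 0.11.9, scikit-learn 1.9.0; 2000 variable genes, 30 components, 15 neighbours, resolution 1.0). Figures used matplotlib 3.10.9. The calculations were tested on simulated data.

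Named genes were all 8 members, Vwf and Car4, the 3 genes most like each member, up to 4 genes per related list, and the markers checked; genes named with the cells holding Selp or Sele come from the marker lists. The members, named by symbol, and the lists were chosen with earlier results of these data known. Protein sequences were not used here.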

Additional observations from a re-analysis of the deposited data

Results flagged for a closer look

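Icam1 in Endothelial relative to all other cells pointed in opposite directions in the 2 libraries. The ratio was 0.925 in the CD45-negative library, where 1677 of the other cells were AT2 cells, and 1.46 in the CD45-positive library, where 7438 were Immune cells. The difference was not tested, since each library was 1 sample.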

How the results depend on the processing

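Between the Vwf and neither groups, 2 adhesion genes, Selp included, differed 2-fold. This became 1 at a minimum of 200 UMI, 1 in the CD45-positive library and 1 there without cells with a Ptprc UMI. Between the Car4 and neither groups 3 did, and 1 at a 3-fold threshold. Between the Endothelial cells of the libraries 2 did, Selp included, and 1 at a minimum of 200 UMI, 5 at 1.5-fold and 0 at 3-fold. Of 304 single ratios under other filters, thinning and scaling, 221 moved by no more than their interval and 83 moved. Changes of direction were counted only for ratios past 2-fold in the main result, and there were 0 here. Of 53 under alternatives chosen after seeing the data, 22 stayed, 30 moved and 1 past 2-fold changed direction. Vcam1 in the Car4 over the neither group was 1.06 in the CD45-positive library without cells with a Ptprc UMI, against 0.243. Smaller ratios that changed direction are not in this count. Among them, Esam was slightly lower in the Vwf than in the neither group of the CD45-negative library. In the CD45-positive library it was 451 CPM in the Vwf and 395 CPM in the neither group. The cause of these changes was not tested. Thinning to 4000 UMI per cell took Selp below the 50-UMI minimum and Icam1 past 2-fold. No paired analysis was possible because each group was 1 library. Depth limits Sele and Selp most, since their counts rest on 4 and 40 CD45-negative endothelial cells.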
